A study of Mus musculus with 8 samples.

Results

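Adrenergic receptors are the cell surface receptors for noradrenaline and adrenaline, and 8 of their genes, Adra1a, Adra1b, Adra1d, Adra2a, Adra2b, Adra2c, Adrb1 and Adrb3, were followed in the mouse aorta. Each gene was taken as the row of the expression table that carries its name, and where several rows carry it, as the row with the most reads over all libraries. This gave 8 loci of 48607 in the table. Whole aortas came from mice on a Western diet, and their poly(A) RNA was sequenced in 8 libraries, and the design text counts 5 ApoE-/- and 3 ApoE-/-NPRC-/- mice. All mice lack apolipoprotein E, which makes them prone to atherosclerosis on this diet, so the controls carry that deletion too. ApoE-/-NPRC-/- mice also carry a frameshift, made by CRISPR in all tissues of C57BL/6 background mice, in the gene of natriuretic peptide receptor C. The labels give no age.

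The labels conflict. By title, 5 libraries were ApoE-/- (1 to 5) and 3 were ApoE-/-NPRC-/- (1 to 3). A separate genotype entry names the same genotype for only 4 of the 8, ApoE-/- 1, 2 and 3 and ApoE-/-NPRC-/- 3. Titled ApoE-/- 4 and 5 are entered as ApoE-/-NPRC-/-, while titled ApoE-/-NPRC-/- 1 and 2 are entered as ApoE-/-. The main receptor comparisons are therefore given under both labels, and libraries are called by their titles. Some further values are given by title only. Npr3, the gene of NPRC, had 0.62 to 1.69 FPKM (fragments scaled to locus length and sequencing depth) in libraries titled ApoE-/- and 1.13 to 1.39 FPKM in those titled ApoE-/-NPRC-/-, and these ranges overlap. A frameshift need not lower the RNA of a gene, so this level settles neither label. Total counts per library were between 62969165 and 86693276. Smooth muscle markers identify the tissue, with a summed level of 1338 to 2966 FPKM, and brown fat markers were present in every library at 130 to 608 FPKM in sum. Of 70 marker genes in 10 lists of cell types, none was at 0 in every library. In whole tissue, fewer cells of a type and less RNA per cell cannot be told apart.

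Alpha-1 receptors act through Gq proteins and phospholipase C and make vascular smooth muscle contract. Alpha-2 receptors act through Gi proteins, and on sympathetic nerve endings they restrain the release of noradrenaline. Beta receptors act through Gs proteins and adenylyl cyclase. The beta-1 receptor is best known for driving the heart, and the beta-3 receptor for driving fat breakdown and heat production in fat cells.

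The loci lie on 6 chromosomes of the mouse genome build GRCm38. Adra1a lies on chromosome 14 from 66635251 to 66771168 on the plus strand. Adra1b lies on chromosome 11 from 43774606 to 43901210 on the minus strand. Adra1d lies on chromosome 2 from 131545850 to 131562283 on the minus strand, and Adra2b on the same chromosome from 127363208 to 127367221 on the plus strand. Adra2c lies on chromosome 5 from 35278319 to 35281763 on the plus strand. Adra2a and Adrb1 share chromosome 19, both on the plus strand, from 54044151 to 54048982 and from 56722199 to 56733113. Adrb3 lies on chromosome 8 from 27225776 to 27250857 on the minus strand. No stretch of 31 bases was shared between the annotated transcripts of any of the 28 pairs of receptor genes, so an exact match of that length points to a single gene of the 8. In the GENCODE M21 annotation, Gm14285 overlaps Adra1d and Gm45470 overlaps Adrb3. Whether the counting used strand is not stated in the sources used here, and reads of a gene and of an overlapping partner may not be separated.

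Promoter sequences from RefSeq (GRCm38.p6) were matched by symbol for 5 of the 8 genes. Adrb1 and Adra2a are the tested receptors among them and are shown because Adrb1 shared its low libraries with Adrb3 and Adra2a did not. The 250 bases before the RefSeq transcription start are printed 5′ to 3′ on the plus strand, at chr19:54045009-54045258 for Adra2a and chr19:56721867-56722116 for Adrb1. The Adra2a locus and its annotated gene begin upstream, at 54044151, so the Adra2a window lies inside the locus measured here. Capitals mark matches, on either strand, to the GC box (GGGCGG), the TATA box (TATAAA), the E-box (CACGTG), the short form of the cAMP response element (TGACG) and the CCAAT box (CCAAT).
Adra2a: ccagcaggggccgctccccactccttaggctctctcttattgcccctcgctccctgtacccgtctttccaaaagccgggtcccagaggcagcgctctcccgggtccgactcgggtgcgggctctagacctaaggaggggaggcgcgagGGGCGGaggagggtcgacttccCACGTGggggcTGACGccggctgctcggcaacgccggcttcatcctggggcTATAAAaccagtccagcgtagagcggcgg
Adrb1: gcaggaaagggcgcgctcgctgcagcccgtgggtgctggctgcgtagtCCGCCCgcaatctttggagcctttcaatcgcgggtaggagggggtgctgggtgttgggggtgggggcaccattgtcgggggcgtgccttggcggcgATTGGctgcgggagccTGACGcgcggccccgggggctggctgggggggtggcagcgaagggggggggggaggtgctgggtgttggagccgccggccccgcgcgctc

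Both windows are rich in G and C, at 67.6% for Adra2a and 74% for Adrb1, where the median of 32851 mouse promoter windows was 52.4%. Both hold a GC box, found in 32.7% of all windows, and a short cAMP response element, found in 17.8%. The full element (TGACGTCA), which contains the short one and occurs in 1.55% of windows, was in neither. The Adra2a window alone holds a TATA box, 29 bases before the RefSeq start, and an E-box, which 12.4% and 6.02% of windows hold. The Adrb1 window alone holds a CCAAT box, found in 33.8% of windows. A match describes the letters only.

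Adra1d and Adrb3 had the highest FPKM of the 8 receptors. Adra1d had 10.08, 10.11, 11.76, 6.89 and 14.17 FPKM in libraries titled ApoE-/- 1 to 5, and 7.96, 14.00 and 15.82 FPKM in those titled ApoE-/-NPRC-/- 1 to 3. Its lowest library was ApoE-/- 4 and its highest ApoE-/-NPRC-/- 3, and the groups overlap. Adra1d is an alpha-1 receptor of large arteries, and its levels spanned 2.30-fold. Adrb3 had 10.67, 13.57, 2.97, 4.92 and 11.46 FPKM in ApoE-/- 1 to 5, and 9.43, 12.55 and 9.11 FPKM in ApoE-/-NPRC-/- 1 to 3. The libraries titled ApoE-/- 3 and 4 stand below the other 6, which lie between 9.11 and 13.57 FPKM, so the lowest and the highest library both carry the ApoE-/- title.

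Adra1a, the second alpha-1 receptor measured above the filter, had 2.09, 2.34, 0.90, 0.95 and 3.66 FPKM in ApoE-/- 1 to 5, and 2.74, 2.62 and 2.66 FPKM in ApoE-/-NPRC-/- 1 to 3. The 3 libraries titled ApoE-/-NPRC-/- lie close together, inside the range of the libraries titled ApoE-/-. Adrb1 had 2.24, 2.63, 0.44, 0.69 and 2.39 FPKM in ApoE-/- 1 to 5, and 1.40, 1.77 and 1.25 FPKM in ApoE-/-NPRC-/- 1 to 3. ApoE-/- 3 and 4 were the 2 lowest libraries for Adra1a and Adrb1 as well as for Adrb3. Adra2a, the alpha-2 receptor with the highest level, had another pattern, with 2.37, 0.94, 2.20, 1.07 and 1.61 FPKM in ApoE-/- 1 to 5, and 1.18, 1.83 and 1.10 FPKM in ApoE-/-NPRC-/- 1 to 3. Its lowest library was ApoE-/- 2, the library with the most Adrb1 and Adrb3.

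Adra1b, Adra2b and Adra2c stayed under 1 FPKM in every library. Adra1b, the remaining alpha-1 receptor, ranged from 0.27 to 0.76 FPKM with a median of 0.365, on 77 to 269 counts. Adra2c ranged from 0.23 to 0.46 FPKM with a median of 0.34, on 74 to 166 counts. Adra2b was lowest, from 0.05 to 0.34 FPKM with a median of 0.13, on 16 to 136 counts. All 3 had counts in every library. The plot of receptor levels by library sets all 8 genes side by side.

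**Figure D1:**
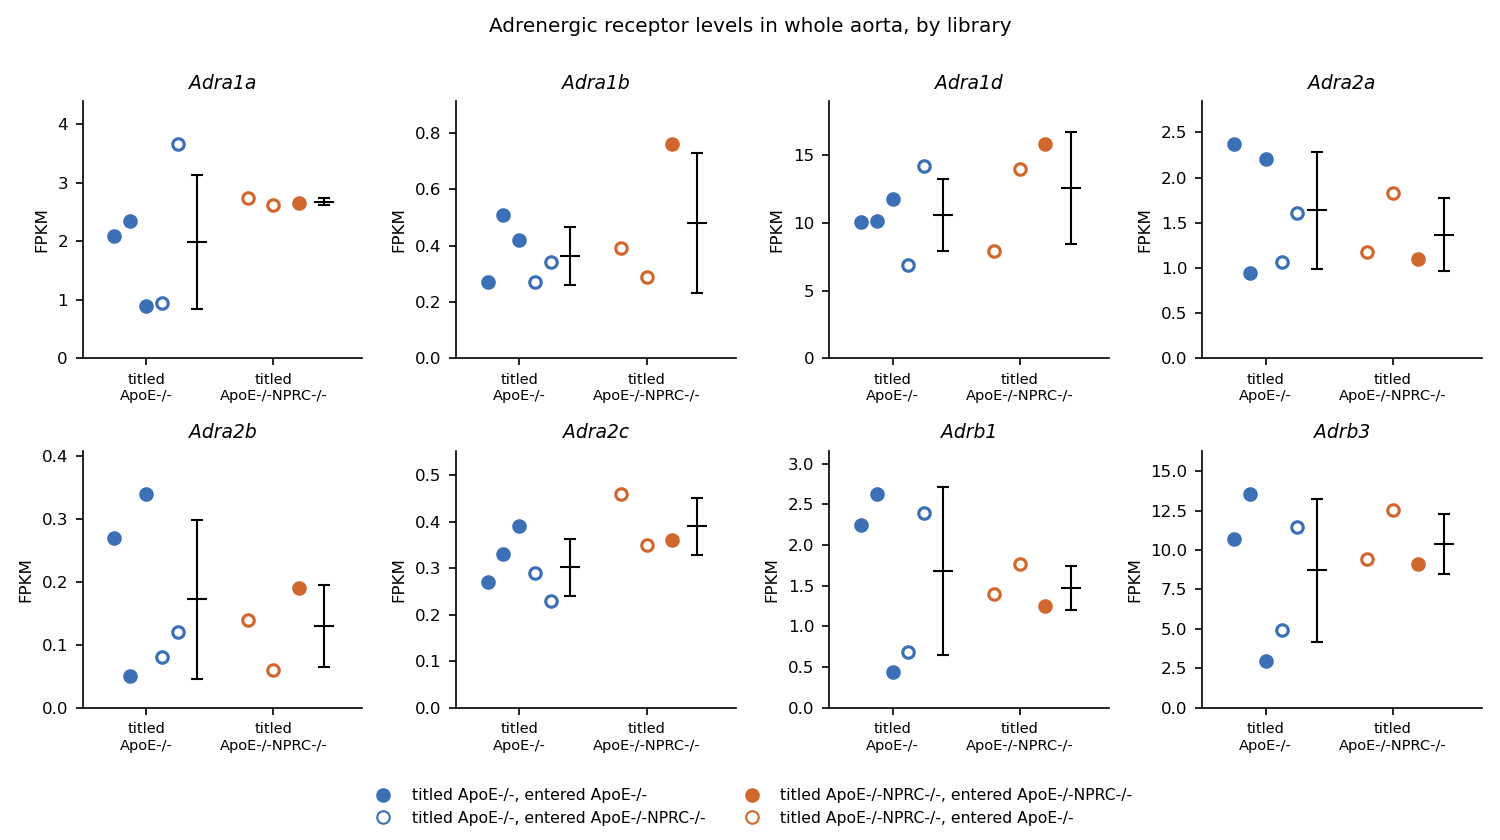
FPKM of each receptor gene (vertical axis, a separate scale for each gene) in the 5 libraries titled ApoE-/- (blue) and the 3 titled ApoE-/-NPRC-/- (orange); filled circles are libraries whose genotype entry names the same genotype, open circles those whose entry names the other one, and bars give the mean and SD of each titled group. The groups overlap for all 8 genes, and Adra1a, Adrb1 and Adrb3 share 2 low libraries, ApoE-/- 3 and 4.

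Mean FPKM over the 8 libraries put the receptors in the order Adra1d (11.3), Adrb3 (9.34), Adra1a (2.25), Adrb1 (1.60), Adra2a (1.54), Adra1b (0.406), Adra2c (0.335) and Adra2b (0.156). Neighbours in this order were compared within libraries by a two-sided exact sign-flip permutation test of log2(FPKM + 0.01), adjusted over the 7 pairs. Adrb3 was above Adra1a in 8 of 8 libraries, by 2.05 ± 0.36 (SD, n = 8) on the log2 scale (exact p = 0.0078, adjusted p = 0.027). Adra2a was above Adra1b in 8 of 8 libraries, by 1.9 ± 0.87 (exact p = 0.0078, adjusted p = 0.027). Adra2c was above Adra2b in 7 of 8 libraries, by 1.28 ± 0.94 (exact p = 0.016, adjusted p = 0.036). The other 4 neighbour pairs did not pass. Adra1d was above Adrb3 in 5 of 8 libraries (exact p = 0.21), Adra1a above Adrb1 in 6 of 8 (exact p = 0.031, adjusted p = 0.055), and Adrb1 above Adra2a in 4 of 8 (exact p = 0.84).

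The place of Adra1a depends on the length used. Its counts and FPKM, scaled to the total counts, imply a length of about 19454 bases, 4.54 times its longest annotated transcript. This ratio was 1.20 to 1.58 for the other 7 genes. It was 1.20 even for Adra1d, with 1 annotated transcript of 1899 bases, so the implied lengths are not exact and run high. Per kilobase of the longest annotated transcript, Adra1a reached 10.3 ± 4.05 CPM per kilobase (counts scaled to library size; SD, n = 8), beside 14.0 ± 4.02 for Adra1d and 14.9 ± 5.53 for Adrb3. On that scale Adra1a was above Adrb1 in 8 of 8 libraries (exact p = 0.0078, adjusted p = 0.018), and Adra1d was above Adra1a in 7 of 8 (exact p = 0.047, adjusted p = 0.082). The Adra1a locus may include reads outside the annotated transcripts, and 3 further assembled loci on the opposite strand inside the gene carry its name and were not used. Levels of one gene across libraries do not depend on this length.

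As shares of the summed FPKM of the 8 receptors, Adra1d and Adrb3 together took 73.4 to 79.8%, and Adra1a 4.63 to 11.6%. Per kilobase of the longest annotated transcript, the pair took 59.0 to 68.7% and Adra1a 14.8 to 30.0%, so the share of Adra1a depends on the length as its level does. The split between them varied more than their sum. Adra1d took 33.2% to 60.6% and Adrb3 15.3% to 44.5%, and the ratio of Adra1d to Adrb3 ran from 0.745 in ApoE-/- 2 to 3.96 in ApoE-/- 3. On FPKM, the 3 alpha-1 genes together took 42.5 to 67.4%, the 3 alpha-2 genes 4.33 to 15.1%, and the 2 beta genes 17.6 to 53.1%. No share of FPKM passed the test between the titled groups, with a smallest exact permutation p of 0.25 for Adra1a (two-sided, 5 against 3), which took 7.35% ± 2.26 (SD, n = 5) in libraries titled ApoE-/- and 9.30% ± 1.99 (SD, n = 3) in those titled ApoE-/-NPRC-/-. By genotype entry the smallest exact p was 0.46, for Adra1b. Per annotated length, Adra1a took 20.8% ± 5.11 (SD, n = 5) and 25.4% ± 4.17 (SD, n = 3) by title (exact permutation p = 0.23, the smallest of the 8).

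The study asked what loss of NPRC changes in the atherosclerotic aorta. None of the 5 receptor genes that passed the filter (at least 1 FPKM in at least 3 libraries) had an unadjusted p under 0.05 in edgeR's quasi-likelihood test, under either label. Of all 20506 loci tested, 13.6% had such a p by title and 1.31% by genotype entry, and 0 had an adjusted p under 0.05 under either. DESeq2 gave 650 loci with an adjusted p under 0.05 by title and 9 by genotype entry, limma on log2(FPKM + 1) gave 2 and 0, and voom with quality weights 130 and 0, and none of the 5 receptors was among them. No receptor passed the criterion of the study either, a fold change over 2 or under 0.5 with an unadjusted p under 0.05, which 3.47% of loci met by title and 0.463% by genotype entry. The groups overlapped for all 8 receptors under both labels. Groups that do not overlap were found for 7.41% of loci by title and 1.2% by genotype entry.

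By title, the largest difference among the 5 was in Adra1a. It was 1.99 ± 1.14 FPKM (SD, n = 5) in libraries titled ApoE-/- and 2.67 ± 0.061 FPKM (SD, n = 3) in those titled ApoE-/-NPRC-/-, a log2 fold change of 0.48 ± 0.39 (SE) with a 95% interval from -0.40 to 1.37 (edgeR, adjusted p = 0.60). Without ApoE-/- 5, the library with the most Adra1a, the value was 0.80 with an unadjusted p under 0.05 (edgeR, adjusted p = 0.24), as 18.7% of all loci had in that fit, and no other single library left out took a receptor of the 5 past that threshold by title. Adra1d differed by 0.29 ± 0.27 (SE; 95% interval -0.33 to 0.90). Adrb3 differed by 0.30 ± 0.41 (SE; 95% interval -0.62 to 1.22). Adra2a differed by -0.24 ± 0.34 (SE; 95% interval -1.02 to 0.53) and Adrb1 by -0.13 ± 0.52 (SE; 95% interval -1.30 to 1.04). The intervals include no change. Their upper ends are folds of 1.45 (Adra2a) to 2.58 (Adra1a), and their lower ends folds of 0.80 (Adra1d) to 0.41 (Adrb1). Differences within the intervals are not excluded by these libraries.

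By genotype entry, Adra2a had the largest difference, -0.43 ± 0.33 (SE; 95% interval -1.18 to 0.32, edgeR, adjusted p = 1.00). Adra1a differed by 0.20, Adra1d by 0.21, Adrb1 by -0.21 and Adrb3 by -0.18 on the log2 scale. Adrb3 thus has opposite signs under the 2 labels, 0.30 and -0.18, neither beyond its error. The median over the 5 tested receptors was 0.29 by title and -0.18 by genotype entry, and over all tested loci it was -0.0062 and -0.0038.

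The 3 receptors outside the filter were fitted without it, among 44689 loci of which 10.4% had an unadjusted p under 0.05 by title and 2.22% by genotype entry. None of the 3 did. By title the log2 fold changes were 0.45 ± 0.37 (SE) for Adra1b, -0.40 ± 0.65 for Adra2b and 0.39 ± 0.28 for Adra2c. By genotype entry they were 0.32 ± 0.40, -0.38 ± 0.66 and -0.24 ± 0.31. A two-sided exact permutation test of log2 CPM, which can reach 0.018 with 5 against 3 libraries, gave p from 0.11 (Adra2c) to 0.86 (Adrb1) over the 8 receptors by title and from 0.38 to 0.95 by genotype entry. Without ApoE-/- 3, Adra2c reached p = 0.029 in this exact test by title, the smallest that 4 against 3 libraries allow. The share of all loci that reach it in this subset was not computed. By genotype entry, with all libraries, Adra2c differed by -0.24 in log2 CPM (exact permutation p = 0.38). The plot of fold changes shows both labels for each gene.

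**Figure D2:**
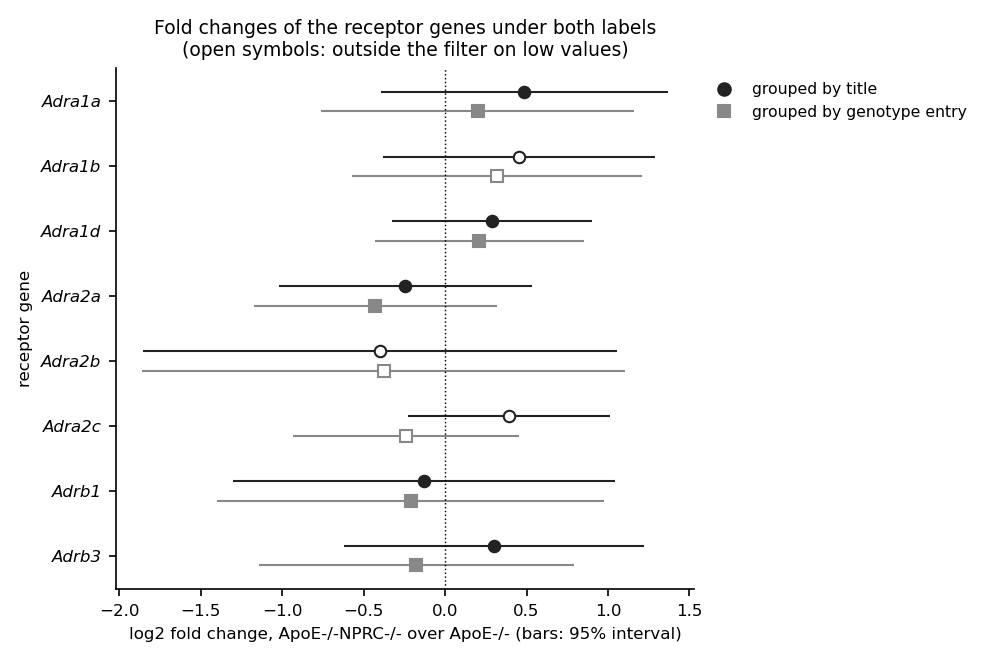
Log2 fold change of ApoE-/-NPRC-/- over ApoE-/- (horizontal axis) for each receptor gene, with 95% intervals, grouped by title (black circles) and by genotype entry (grey squares); open symbols are genes outside the filter on low values. All 16 intervals include 0, and Adrb3 and Adra2c lie on opposite sides of 0 under the 2 labels.

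Receptor levels varied between libraries more than those of most genes. The SD of log2 CPM over the 8 libraries was 0.84 for Adrb1, 0.70 for Adrb3 and 0.69 for Adra1a, larger than that of 92.3%, 87.2% and 86.6% of the tested loci, whose median SD was 0.34. It was 0.51 for Adra2a and 0.42 for Adra1d. Adrb1 and Adrb3 varied together, with Pearson r = 0.957 over 8 libraries (exact permutation p = 0.0012, adjusted over 10 receptor pairs 0.012) and Spearman rho = 0.905 (exact permutation p = 0.0046). Without ApoE-/- 3 and 4, r was 0.686 over 6 libraries. Adra1a had r = 0.869 with Adrb3 and 0.820 with Adrb1 (exact permutation, adjusted p = 0.080 for both), which turned to -0.213 and -0.265 without those 2 libraries, so these 2 relations rest on them. Adra1d had r = 0.156 with Adrb3. These receptor pairs were compared after the data had been seen, so their p-values are a description and not a test.

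The same 2 libraries had the least brown fat marker signal. Ucp1, the uncoupling protein of brown fat and the most abundant marker of the list, was lowest in ApoE-/- 3 (71.8 FPKM) and ranged up to 343 FPKM. ApoE-/- 3 and 4 were the 2 lowest libraries for 6 of the 8 brown fat markers, the exceptions being Dio2 and Prdm16. The sum of the 8 markers was 130 and 249 FPKM in ApoE-/- 3 and 4 and 361 to 608 FPKM in the other 6 libraries. White fat markers, led by Adipoq, summed to 100 FPKM in ApoE-/- 3 and 222 FPKM in ApoE-/- 4, and to 146 to 412 FPKM in the others. Brown fat was not the only list in which ApoE-/- 3 and 4 stood apart. Their macrophage marker sums were the highest, 1683 and 1804 FPKM, against 287 to 1174 FPKM in the others. Fibroblast markers, led by Lum, were highest there too, at 508 and 620 FPKM against 138 to 438 FPKM.

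Over the 8 libraries, Adrb3 had Pearson r = 0.968 with the mean log2 CPM of the brown fat markers (exact permutation p = 0.0028, adjusted over 50 relations 0.14) and Spearman rho = 0.714 (exact permutation p = 0.058). Adrb1 had r = 0.905 and Adra1a r = 0.904 with the same list (exact permutation, adjusted p = 0.14 for both). None of the 50 relations between the 5 receptors and the 10 marker lists passed adjustment. Without ApoE-/- 3 and 4, r was 0.518 for Adrb3, 0.191 for Adrb1 and 0.314 for Adra1a. With the mean of each titled group removed, r with brown fat was 0.969 for both Adrb3 and Adrb1, with adjusted p = 0.10 and 0.069 (exact permutation within groups). Adra1d stood closest to the smooth muscle list, led by Acta2, with r = 0.793 (exact permutation p = 0.016, adjusted p = 0.16), and r was 0.547 without ApoE-/-NPRC-/- 2 and 3. Adra1a had r = -0.815 with the macrophage list (exact permutation p = 0.014, adjusted p = 0.16), and r was -0.909 without ApoE-/-NPRC-/- 2 and 3. The part of fat or of other cell types in these receptor levels was not tested.

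**Figure D3:**
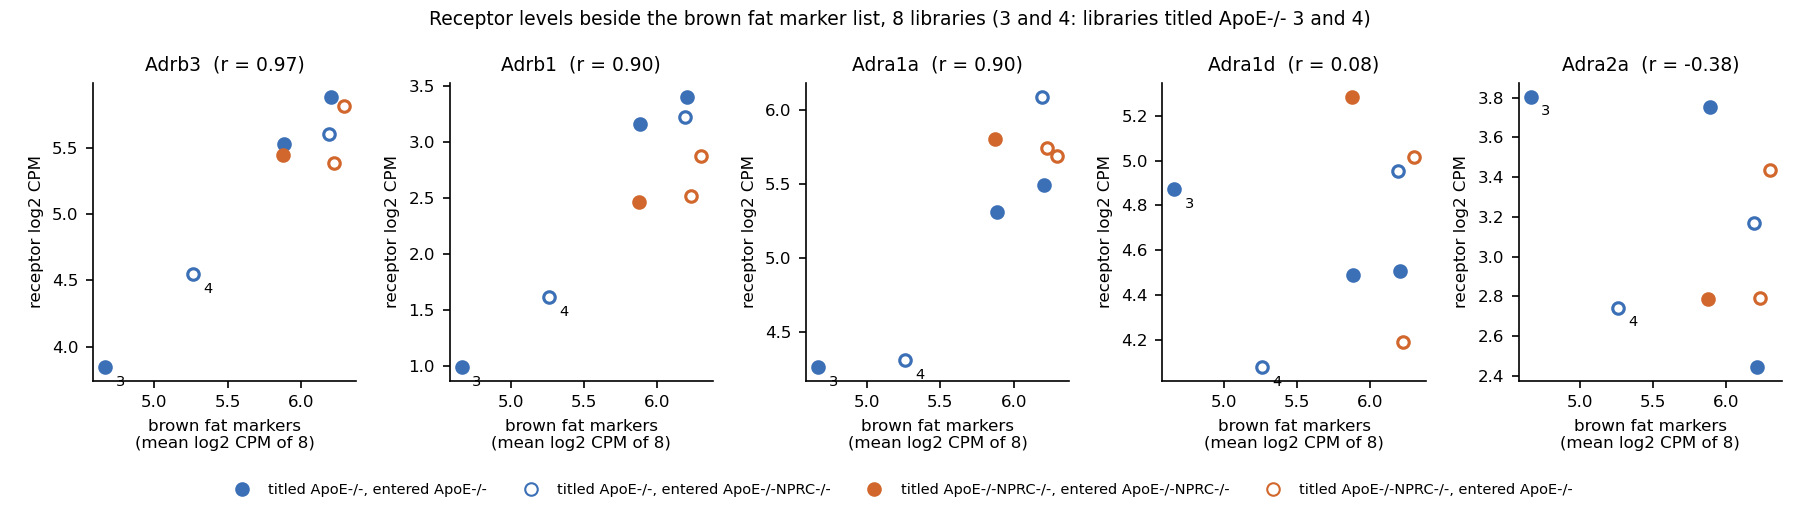
Log2 CPM of the 5 tested receptors (vertical axes) against the mean log2 CPM of 8 brown fat markers (horizontal axes) in the 8 libraries, coloured by title and filled where both labels name the same genotype. Libraries ApoE-/- 3 and 4, marked 3 and 4, have the lowest marker level and the lowest Adrb3, Adrb1 and Adra1a, while for Adra1d and Adra2a they are not both the lowest.

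Without ApoE-/- 3 and 4, which were left out after their values had been seen, the difference of Adrb3 by title was -0.11 ± 0.17 (SE; edgeR, adjusted p = 0.88), against 0.30 with all libraries, and that of Adra1a was 0.081 ± 0.22 (SE), against 0.48. Adrb1 was then lower in libraries titled ApoE-/-NPRC-/-, at -0.63 with an unadjusted p under 0.05, as 7.83% of all loci had (edgeR, adjusted p = 0.54). The choice of these libraries rests on the receptor levels themselves, so this value is a description.

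Among tested loci with 1 gene name, those most like each receptor over the 8 libraries were described by Pearson r of log2 CPM, with no test. Adra1a was closest to Ppara (r = 0.988), a nuclear receptor of fatty acid oxidation, Kcnk3 (0.984), a potassium channel, and Prkar2b (0.984), a regulatory subunit of protein kinase A. Adrb1 was closest to Hsdl2 (0.975), Lipe (0.975), the hormone-sensitive lipase of fat cells, and Esrrg (0.972). Adrb3 was closest to Gm14764 (0.984), Ctcfl (0.979) and the adenosine receptor gene Adora1 (0.975). Adra1d was closest to 2 loci of Filip1 (0.987 and 0.985) and to Gm49595 (0.971), and Adra2a to Fam78b (0.939), Gm6296 (0.930) and Atxn7l1os1 (0.920). At r of at least 0.95 there were 31 loci for Adrb3, 29 for Adra1a, 18 for Adrb1, 9 for Adra1d and 0 for Adra2a.

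The genes that make, move and break down noradrenaline, and those that carry the signal of the receptors, were read from the same fit. Of 48 listed genes 41 were tested, and 14 had an unadjusted p under 0.05 by title (34.1%, beside 13.6% of all loci). The lists were chosen with earlier results of these data known, so these shares are a description and not a test of enrichment. The direction was mixed among the 14 genes. Of these 14, 6 were higher in libraries titled ApoE-/-NPRC-/-, as were 6.51% of all loci, and 8 were lower, as were 7.13%. None had an adjusted p under 0.05 in edgeR (smallest 0.19). In DESeq2, 7 of the 41 had an adjusted p under 0.05 by title, namely Dbh, Slc6a2, Th, Arrb2, Plcb2, Adcy5 and Adcy6, beside 650 of all 20488 loci. By genotype entry 0 did, beside 9 of 20482 loci. With limma's voom and quality weights, Adcy5 passed by title (adjusted p = 0.043), as did 130 of all 20506 loci. By genotype entry, 1 of 41 had an unadjusted p under 0.05 in edgeR (2.44%, beside 1.31% of all loci), Adcy9 at -1.82 (edgeR, adjusted p = 1.00).

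The ligand genes were lower by title, with a median log2 fold change of -0.70 over the 8 tested. An unadjusted p under 0.05 was found for 5 of 8 (13.6% of all loci), all 5 without overlap of the groups (7.41% of all loci). Dbh, whose enzyme makes noradrenaline from dopamine, had 3.26, 1.93, 8.69, 0.80 and 1.83 FPKM in ApoE-/- 1 to 5 and 0.13, 0.02 and 0.03 FPKM in ApoE-/-NPRC-/- 1 to 3. Its log2 fold change was -5.73 ± 1.05 (SE; edgeR, adjusted p = 0.19). Th, the enzyme of the rate-limiting step, had 131 to 1283 counts in libraries titled ApoE-/- and 15, 0 and 8 counts in those titled ApoE-/-NPRC-/-, a log2 fold change of -5.89 ± 1.18 (SE; edgeR, adjusted p = 0.22). Slc6a2, the transporter that takes noradrenaline back into nerve endings, had 2.02 to 10.33 FPKM against 0.19 to 0.37 FPKM, a log2 fold change of -3.83 ± 0.71 (SE; edgeR, adjusted p = 0.19). Slc18a2, the vesicle transporter, differed by -0.87 and Maoa, which breaks monoamines down, by -0.52.

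These ligand genes include markers of sympathetic neurons, and Th, Dbh, Ddc, Slc18a2 and Slc6a2 are in both lists. The sum of the sympathetic list thus in part repeats their values. This list, led by Npy, summed to 8.44 to 44.5 FPKM in libraries titled ApoE-/- and 0.99 to 3.21 FPKM in those titled ApoE-/-NPRC-/-. The Schwann cell list, led by Pmp22, summed to 24.5 to 28.9 FPKM against 17.4 to 21.7 FPKM. Neither list separates the groups by genotype entry. By genotype entry Dbh differed by -1.74, Th by -2.09 and Slc6a2 by -1.17, with groups that overlap (edgeR, adjusted p = 1.00 for each). The receptors that these ligands bind showed no such separation, and whether nerve endings in the dissected tissue play a part was not tested.

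Downstream of the receptors, adenylyl cyclases Adcy5 and Adcy6, which make cAMP, were higher by title. Adcy5 had 25.13, 24.17, 29.81, 22.04 and 29.07 FPKM in ApoE-/- 1 to 5 and 43.20, 49.76 and 52.53 FPKM in ApoE-/-NPRC-/- 1 to 3, a log2 fold change of 0.92 ± 0.16 (SE; edgeR, adjusted p = 0.19). Adcy6 had 14.20 to 18.27 FPKM against 21.68 to 25.21 FPKM, a log2 fold change of 0.55 ± 0.11 (SE; edgeR, adjusted p = 0.22). They were the 2 of 7 tested cyclases with an unadjusted p under 0.05 (13.6% of all loci by title), and their titled groups do not overlap (7.41% of all loci). By genotype entry they differed by 0.046 and -0.056.

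On the Gq side, phospholipase C and IP3 receptor genes moved in both directions. Counts here are of genes with an unadjusted p under 0.05 by title, which 13.6% of all loci had. Plcb4 and Itpr1, an IP3 receptor that releases stored calcium, were higher by 0.69 and 0.47, and Plcb2, a phospholipase C of blood cells, was lower, at -1.03 on the log2 scale, 3 of 7 tested. Among the RGS proteins, which speed the switching off of G proteins, Rgs4 and Rgs3 were higher by 0.54 and 0.31 and Rgs2 lower, at -1.07, 3 of 4 tested. Of the kinases and arrestins that silence occupied receptors, Arrb2 (-0.97) was the single one of 6 with an unadjusted p under 0.05. None of 9 tested G protein alpha subunits had one, and the smallest was that of Gnai3 (-0.33, edgeR, adjusted p = 0.39). By genotype entry no tested gene of these lists had an unadjusted p under 0.05. Plcb4 then differed by 0.23, Itpr1 by 0.092 and Plcb2 by -0.10. Rgs4, Rgs3 and Rgs2 differed by 0.0033, -0.15 and -0.35, Arrb2 by -0.17 and Gnai3 by -0.020. Macrophage markers, led by Lyz2, summed to 592 to 1804 FPKM in libraries titled ApoE-/- and 287 to 946 FPKM in those titled ApoE-/-NPRC-/-, and smooth muscle markers to 1338 to 1789 FPKM and 1715 to 2966 FPKM. Their part in these differences was not tested.

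Of the 14 signalling genes with an unadjusted p under 0.05, 7 kept it whichever library was left out, namely Dbh, Slc6a2, Th, Arrb2, Plcb2, Adcy5 and Adcy6. The share of all loci with such a p that keep it in the same way was not computed. The other 7, Slc18a2, Maoa, Rgs2, Rgs3, Rgs4, Itpr1 and Plcb4, lost it without 1 or more of the libraries. Without ApoE-/-NPRC-/- 2, values that lost it were -0.88 for Rgs2, 0.39 for Rgs4, -0.69 for Slc18a2, 0.43 for Itpr1, 0.60 for Plcb4 and -0.53 for Maoa. Itpr1 (0.40) and Plcb4 (0.57) also lost it without ApoE-/-NPRC-/- 3, Slc18a2 (-0.86), Maoa (-0.41) and Rgs3 (0.24) without ApoE-/-NPRC-/- 1, Maoa without ApoE-/- 1 (-0.52), 2 (-0.54) or 3 (-0.35), and Rgs3 without ApoE-/- 2 (0.29) or 5 (0.28). Gnai3 gained it without ApoE-/- 5 (-0.39) or ApoE-/-NPRC-/- 1 (-0.44). Without ApoE-/-NPRC-/- 2 the count fell from 14 to 9, of which 8 were among the 14 and Rgs5 (0.83) was gained, and the share of all loci fell from 13.6 to 6.50%.

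**Figure D4:**
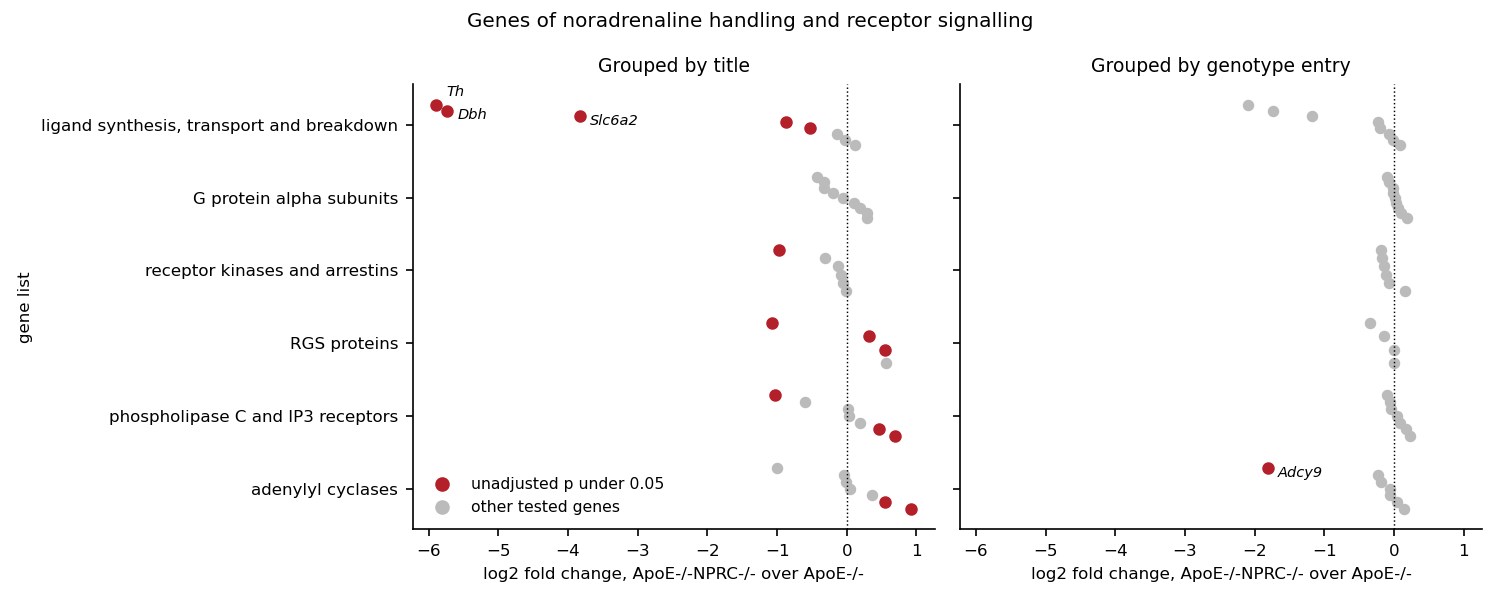
Log2 fold change of ApoE-/-NPRC-/- over ApoE-/- (horizontal axis) for the 41 tested genes of ligand handling and receptor signalling, one point per gene in 6 lists (vertical axis), by title (left) and by genotype entry (right); red points have an unadjusted p under 0.05. By title 14 genes do, with Th, Dbh and Slc6a2 farthest from 0, and by genotype entry 1 does, Adcy9.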

How the data were processed

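Aortic RNA of 8 mice was analysed from the deposited gene table. The authors trimmed reads (cutadapt 1.9 and FastQC are in the submitters' processing notes), mapped them with HISAT2 to GRCm38 and assembled loci with StringTie. The authors deposited whole-number counts per locus, without normalization, and FPKM, which the authors scaled to locus length and mapped fragments; the counting tool is not given in the sources used here. Counts were tested with edgeR 4.0.16 in R 4.3.3 (TMM, quasi-likelihood, Benjamini-Hochberg over the 20506 loci that reach 1 FPKM in 3 or more libraries), after a check on simulated data. Single levels, shares and correlations were tested with exact permutations of log2 CPM (prior count 2) or FPKM shares. Depth was 62969165 to 86693276 counts. The counting error of a receptor in a library was 1.35 to 25% of its count, largest for Adra2b, beside a coefficient of variation between libraries of 23.4 to 68.5%. The replicate numbers showed no pairing of the libraries, in a check too small to exclude it. Alternatives included RLE and total count scaling, DESeq2 1.42.0, limma 3.58.1, other filters, the genotype entry and each library left out.

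The receptors and gene lists were chosen with earlier results of these data known. Named genes are the 8 receptors, Npr3, in each signalling list at most 5 genes with an unadjusted p under 0.05 by title (or else the gene with the smallest p), the most abundant gene of each marker list, and the 3 loci most like each tested receptor; Adcy9, Dio2, Prdm16 and Rgs5 were named after their values were seen. The receptor pairs, length checks, shares per annotated length, promoters and the fits without ApoE-/- 3 and 4 were also added after seeing the data.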

Additional observations from a re-analysis of the deposited data

Results flagged for a closer look

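Of 32 groups of 5 libraries examined (log2 CPM and share of each receptor, under both labels), 2 held a library far from the others, where chance flags about 1 in 20 groups, or 1.6 of 32, so 2 is close to the number chance gives. Both concern Adrb3 in the library titled ApoE-/- 3, among the 5 libraries entered as ApoE-/-. Its log2 CPM was 3.84, against 5.39 to 5.89 in the other 4 libraries. Its share of the summed FPKM of the 8 receptors was 15.3%, against 37.5 to 44.5%. By title the same library was not set apart, since ApoE-/- 4 was low too. This library also had the lowest brown fat marker sum, 130 FPKM. The part of fat or of other cell types in its Adrb3 level was not tested.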

How the results depend on the processing

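The count of tested receptors with an unadjusted p under 0.05 was 0 by genotype entry under every alternative run. By title it was 0 under most and 1 under 3: with the 4 libraries of matching labels (Adra1d, 0.65, where 13.4% of all loci had such a p; 3 against 1, the lone library assumed to vary like the others), without ApoE-/- 3 and 4 (1, Adrb1, beside 7.83% of loci), and over the single libraries left out (0 to 1, beside 6.50 to 21.6%). Adrb1 by title changed sign under limma with log2(FPKM + 0.1) (0.088), voom with quality weights (0.21), leave-one-out (-0.36 to 0.087) and the replicate block (0.071). Adrb3 by title changed sign without ApoE-/- 3 and 4 (-0.11) and by genotype entry (-0.18). By genotype entry, voom turned Adrb1 (0.078) and Adrb3 (0.055), and leaving out 1 library gave -0.14 to 0.59 for Adra1a, -0.055 to 0.51 for Adra1d, -0.69 to 0.12 for Adrb1 and -0.39 to 0.10 for Adrb3. Among the low receptors, leaving out 1 library gave log2 CPM differences of -0.062 to 0.66 by title and -0.28 to 0.46 by genotype entry for Adra1b, and -0.56 to 0.26 and -0.40 to 0.30 for Adra2b; Adra2c was -0.24 by genotype entry against 0.41 by title. The cause was not tested.

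Signalling genes with an unadjusted p under 0.05 by title numbered 9 with the 4 libraries of matching labels (13.4% of all loci), 21 under voom with quality weights (26.4%) and 1 by genotype entry (Rgs3 turned to -0.15 and Adcy6 to -0.056), 9 to 17 over single libraries left out, and 11 under the replicate block (8.84%), against 14 for the same 6 libraries without it (12.9%). With titled group means removed, same-numbered libraries had correlations of -0.31, -0.11 and 0.0070, beside means of 0.19, 0.035 and -0.013 with other numbers. These values show no pairing by number, but so few pairs cannot exclude it. Npr3 changed sign without ApoE-/- 3 and 4 (-0.12) and over single libraries left out (-0.037 to 0.24). Neighbour pairs of levels past adjustment numbered 0 to 3 over single libraries left out; with 7 libraries the smallest exact p is 0.016. Receptor and marker relations past adjustment numbered 0 to 1, namely Adra2a with cardiomyocyte markers without ApoE-/- 2 (r = 0.967) and Adrb3 with brown fat markers without ApoE-/-NPRC-/- 1 (r = 0.989). Single receptor levels past an exact p of 0.05 numbered 0 to 1, and the share of all loci past it was not computed.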
